A study of Homo sapiens with 4 samples.

Results

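Genes for the subunits of RNA polymerases I, II and III were examined in MDA-MB-231 cells kept for 24 h with RB-1 or with the solvent DMSO. Members were the rows of the deposited count table whose Ensembl gene ID maps to a symbol starting with POLR1, POLR2 or POLR3 and a subunit letter, and whose 4 counts sum to at least 40. This gave 33 of 20263 genes, namely 6 large catalytic subunits, 26 small subunits and POLR2M, which binds polymerase II without being a core subunit. All 33 matching rows met the minimum, the lowest sum being 404 for POLR2J2, so the minimum left none out.

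MDA-MB-231 is an established human line from a triple-negative breast cancer. The series title calls RB-1 a derivative of ribociclib, an inhibitor of the cell cycle kinases CDK4 and CDK6, but no dose is stated in the labels. There were 2 libraries in each group, made from total RNA with an mRNA kit and all from the 1 cell line. Whether they came from separate cultures is not stated, so p-values reflect only how these libraries differ, which may be technical. Library totals ran from 34122874 to 37754168 counts. The mesenchymal marker VIM was at 3565 to 5423 CPM (counts scaled to library size), while ESR1 stayed at or below 0.659 CPM and CDH1 at or below 0.0573. ERBB2, one of the markers listed as low in this line, was at 57.3 to 77.2 CPM. The 4 leukocyte markers summed to 0.916 to 1.15 CPM in DMSO and 0.16 to 0.981 in RB-1, with CD3E at 0 in all libraries, and the 3 endothelial markers summed to 0.885 to 1.46 and 0.981 to 1.68.

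RNA polymerase I makes the large ribosomal RNA precursor, polymerase II makes messenger RNA, and polymerase III makes transfer RNA, a small ribosomal RNA and other short RNAs. Each enzyme is built around a pair of large subunits that form the active centre, surrounded by small subunits. Some of the small subunits are shared: POLR2E, POLR2F, POLR2H, POLR2K and POLR2L serve all of the enzymes, and POLR1C and POLR1D serve polymerases I and III. All of the subunits are needed in fixed proportions in the assembled enzyme, although a transcript level does not give a protein level.

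The size contrast between subunits is large at the level of the transcript. The 6 large subunits had reference transcripts of 4108 to 6751 bases (median 5506), and the 26 small subunits of 827 to 5494 bases (median 1840), in the GENCODE annotation on GRCh38. The promoters printed here are those of the 2 large subunits with the largest falls, of POLR3A, whose product pairs with that of POLR3B, and of POLR1H, the member with the largest rise. Each shows the 250 bases before the first start site in RefSeq (GRCh38.p14), 5′ to 3′, with the motifs found by the search in capitals.

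POLR2A promoter, chr17:7484116-7484365, plus strand: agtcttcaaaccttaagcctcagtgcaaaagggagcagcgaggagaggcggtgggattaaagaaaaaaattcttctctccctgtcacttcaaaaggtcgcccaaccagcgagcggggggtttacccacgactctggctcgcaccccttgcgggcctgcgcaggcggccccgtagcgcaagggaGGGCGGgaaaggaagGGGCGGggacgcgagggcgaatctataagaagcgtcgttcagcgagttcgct
POLR3B promoter, chr12:106357498-106357747, plus strand: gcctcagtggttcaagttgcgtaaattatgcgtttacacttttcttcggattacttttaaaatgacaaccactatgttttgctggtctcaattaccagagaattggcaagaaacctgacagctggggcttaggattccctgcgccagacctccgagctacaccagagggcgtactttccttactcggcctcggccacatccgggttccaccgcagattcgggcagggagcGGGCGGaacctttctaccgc
POLR3A promoter, chr10:78029516-78029765, minus strand: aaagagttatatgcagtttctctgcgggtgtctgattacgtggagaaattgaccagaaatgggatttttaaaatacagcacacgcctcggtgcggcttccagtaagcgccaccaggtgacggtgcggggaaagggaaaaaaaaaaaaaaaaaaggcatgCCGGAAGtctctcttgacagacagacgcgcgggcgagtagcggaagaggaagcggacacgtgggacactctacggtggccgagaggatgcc
POLR1H promoter, chr6:30061015-30061264, plus strand: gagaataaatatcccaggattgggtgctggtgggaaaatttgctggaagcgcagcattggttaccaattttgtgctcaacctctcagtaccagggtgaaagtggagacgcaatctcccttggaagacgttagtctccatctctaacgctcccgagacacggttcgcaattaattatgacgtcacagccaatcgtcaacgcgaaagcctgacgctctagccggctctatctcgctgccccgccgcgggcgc

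Motifs were sought on both strands in windows from 250 bases before to 50 bases after each start. They were the GC box (GGGCGG), the ETS site (CCGGAAG), the YY1 site (ATGGCGG), the TATA box (TATAAA) and the palindromic NRF1 site, by exact match. RefSeq's table held 30 promoters for 24 of the 33 members. The GC box was in 70% of the 30 member promoters and in 45% of all 35116 promoters. The ETS letters were in 36.7% of member promoters against 10.3% of all, and the NRF1 site in 13.3% against 1.24%. The 4 promoters with the NRF1 site were those of POLR2H, POLR3B and POLR2F, whose windows overlap and hold the same site. The 11 promoters with the ETS letters include both of these POLR2F windows and both windows of POLR1B. Member promoters also had a higher median GC content, 61.8% against 58.7% of all. TATAAA was in 3.33% of member promoters, from the 1 match in POLR2M, against 11.5% of all, and the YY1 letters in 10% against 5.55%. Among promoters of large and small subunits, the GC box was in 6 of 8 and 14 of 21, the ETS letters in 3 of 8 and 7 of 21, and the YY1 letters in 0 of 8 and 3 of 21, given with no test. In the sequences above, the capitals in POLR2A and POLR3B are GC boxes, those in POLR3A are the ETS letters, and the POLR1H window holds none of the motifs.

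The libraries differed from each other before any comparison of the groups. In the RB-1 group, 21 of the 26 small subunits were higher in replicate 1 than in replicate 2 (median log2 difference 0.42), whereas 1 of the 6 large subunits was (median -0.14). Of all 13612 tested genes, 6701 were higher in replicate 1 (median -0.0047). Over all 13596 tested genes with a known length, the log2 difference between the RB-1 libraries fell with transcript length (Spearman rho -0.416), and between the DMSO libraries rho was 0.108. These are correlations across genes of the same libraries and are given as descriptions. Which of the RB-1 libraries departs cannot be told from a pair, and values without each library are given beside the calls.

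Large catalytic subunits were lower after RB-1 in 4 of 6 cases, and most small subunits did not pass the test. By edgeR's quasi-likelihood test, with a threshold of 0.05 on the Benjamini-Hochberg adjusted p, POLR1A, POLR2A, POLR2B and POLR3B fell, and POLR1B and POLR3A did not pass. Among the 26 small subunits, POLR1D, POLR1H, POLR2G and POLR2K rose, POLR1F fell, and 21 did not pass. The share of all 13612 tested genes called lower was 16.1% and that called higher was 12.8%, or 28.8% in either direction. The members called were 9 of 33, or 27.3%, which is near that background, and so was the 15.4% of small subunits called higher. The 4 of 6 large subunits called lower stand against 16.1%, and the 1 of 26 small subunits called lower is 3.85%. These counts moved with the library left out. The large subunits called lower were 2 without DMSO replicate 1, 3 without DMSO replicate 2, 1 (POLR3B) without RB-1 replicate 1 and 4 without RB-1 replicate 2. The small subunits called higher were 2, 1, 1 and 10 in the same order, while the genes called over the whole table went to 768, 522, 655 and 1955 higher and 1361, 1302, 1065 and 2443 lower.

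The median log2 fold change was -1.01 for the large subunits and 0.31 for the small ones, beside 0.012 over all tested genes. The difference of these medians, large minus small, was -1.32, given with no test. In single libraries, the median log2 level of the large subunits relative to each one's DMSO mean was -1.19 in RB-1 replicate 1 and -0.85 in RB-1 replicate 2. For the small subunits it was 0.50 and 0.12. The fall of the large subunits was thus seen in both RB-1 libraries, and the median rise of the small ones was mostly that of replicate 1. Both RB-1 libraries lay below both DMSO libraries in 4 of 6 large subunits and 3 of 26 small ones, against 34.3% of all tested genes. They lay above in 1 of 6 and 13 of 26, against 35.3%, and the groups overlapped in 1 and 10. Over all tested genes 69.7% had groups that did not overlap. Other scalings moved the median of all genes by 0.105 (upper-quartile factors) and 0.197 (library totals alone) on the log2 scale. They changed the whole-table calls from 1737 higher and 2189 lower to 2171 and 1830, and to 2059 and 1400, while the large subunits had 4 and 3 lower and the small ones 5 higher and 1 lower under both.

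**Figure D1:**
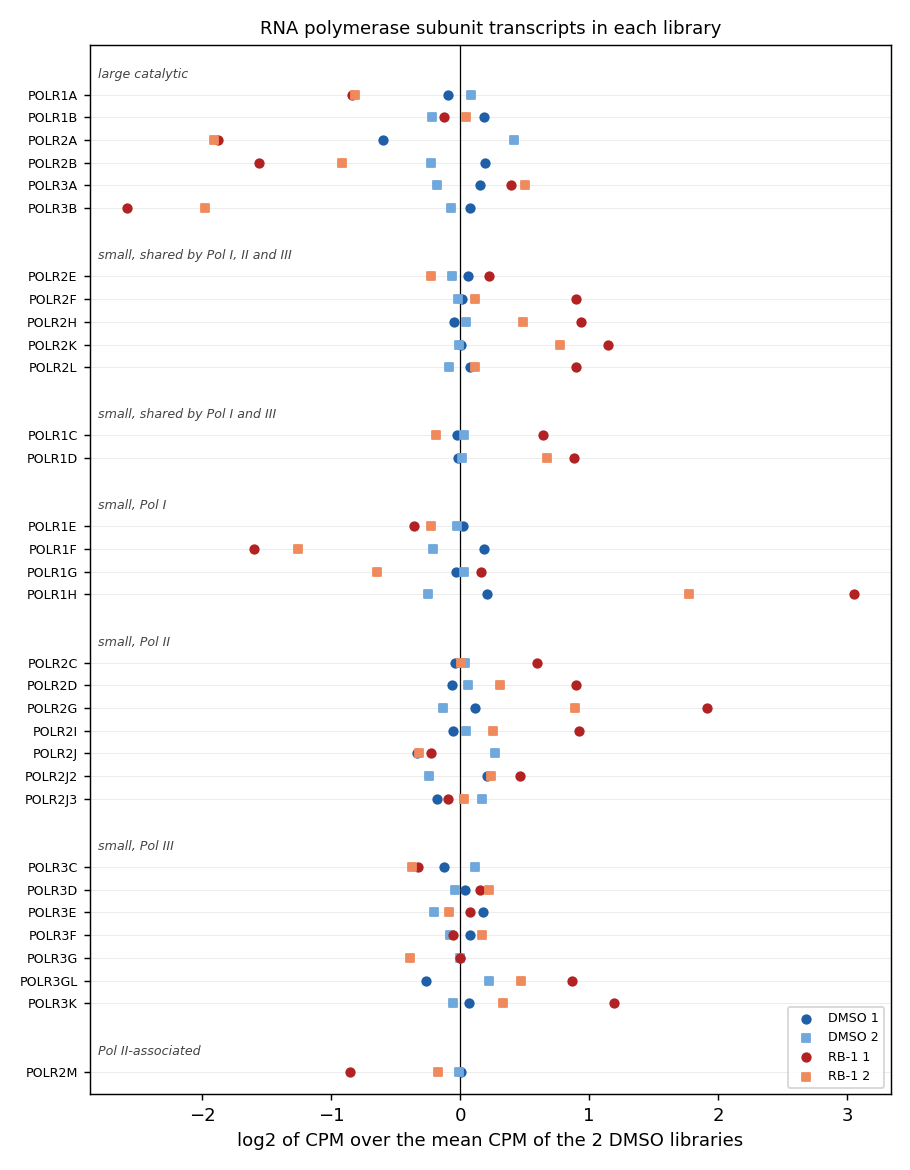
Each row is a member and each point a library; the x axis is the log2 of its CPM over the mean CPM of the 2 DMSO libraries, with members grouped by class. POLR1A, POLR2A, POLR2B and POLR3B have both RB-1 points left of both DMSO points, and among the small subunits RB-1 replicate 1 is mostly to the right of RB-1 replicate 2.

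POLR2A encodes the largest subunit of polymerase II, whose tail of heptad repeats is phosphorylated by transcriptional kinases. It was at 318 and 644 CPM in the DMSO libraries and at 131 and 128 in the RB-1 libraries. The RB-1 values were close to each other, the DMSO values were 2.02-fold apart, and the groups did not overlap. The mean went from 481 ± 231 to 130 ± 2.17 CPM (SD, n = 2 each), a 3.71-fold fall (log2 fold change -1.89 ± 0.32 SE, edgeR adjusted p = 0.00333). DMSO replicate 2 set much of that size: without it the log2 fold change was -1.27 (edgeR adjusted p = 0.0158), and without RB-1 replicate 1 the call was lost (-1.91, adjusted p = 0.0704).

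POLR2B, which encodes the other large subunit of polymerase II, was at 183 and 137 CPM in DMSO and 54.4 and 84.8 in RB-1. Both RB-1 libraries were below both DMSO libraries, with replicate 1 the lower. It fell 2.3-fold (-1.20 ± 0.29 SE, edgeR adjusted p = 0.0124). It did not pass without DMSO replicate 1 (-0.98, adjusted p = 0.0861) or without RB-1 replicate 1 (-0.91, adjusted p = 0.0778). About 12.4% of its exon bases overlap NOA1 or IGFBP7 on the opposite strand. Since no source states whether counting used strand, how far reads of those genes enter its counts is not known.

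Polymerase III showed the most unequal pair. POLR3B, the second largest subunit, was at 31.8 and 28.7 CPM in DMSO and at 5.04 and 7.69 in RB-1, with a wide gap between the groups. Its mean CPM (± SD, n = 2) was 30.2 ± 2.19 with DMSO and 6.36 ± 1.88 with RB-1. It fell 4.75-fold (-2.25 ± 0.33 SE, edgeR adjusted p = 0.00129) and passed without each library in turn (-2.58 to -1.97, adjusted p from 0.00343 to 0.0136). POLR3A, the largest subunit and its partner in the active centre, was at 49.1 and 39.0 CPM in DMSO and 58.0 and 62.4 in RB-1. Both RB-1 values were above both DMSO values, but the difference did not pass (0.45 ± 0.27 SE, edgeR adjusted p = 0.227).

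A ratio of both partners within a library does not depend on how the libraries are scaled. Per kilobase of transcript, POLR3B over POLR3A was 1.01 and 1.14 in the DMSO libraries and 0.135 and 0.192 in the RB-1 libraries. The transcripts of this pair were thus near equal per length in DMSO and far from equal in RB-1. POLR2B over POLR2A was 0.947 and 0.35 in DMSO and 0.681 and 1.09 in RB-1, so those groups overlapped.

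POLR1A, the largest subunit of polymerase I, was at 181 and 205 CPM in DMSO and 108 and 110 in RB-1. The groups did not overlap and the RB-1 libraries were nearly equal. It fell 1.77-fold (-0.82 ± 0.23 SE, edgeR adjusted p = 0.0237), a call that was kept only without RB-1 replicate 2 (adjusted p = 0.0458) among the fits with a library left out, the highest adjusted p of these being 0.178. POLR1B, the second largest subunit of the same enzyme, was at 45.9 and 34.8 CPM in DMSO and 37.0 and 41.8 in RB-1, so the groups overlapped (-0.034 ± 0.28 SE, edgeR adjusted p = 0.941). POLR1B over POLR1A per kilobase was 0.359 and 0.241 in DMSO and 0.487 and 0.536 in RB-1, higher in both RB-1 libraries.

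**Figure D2:**
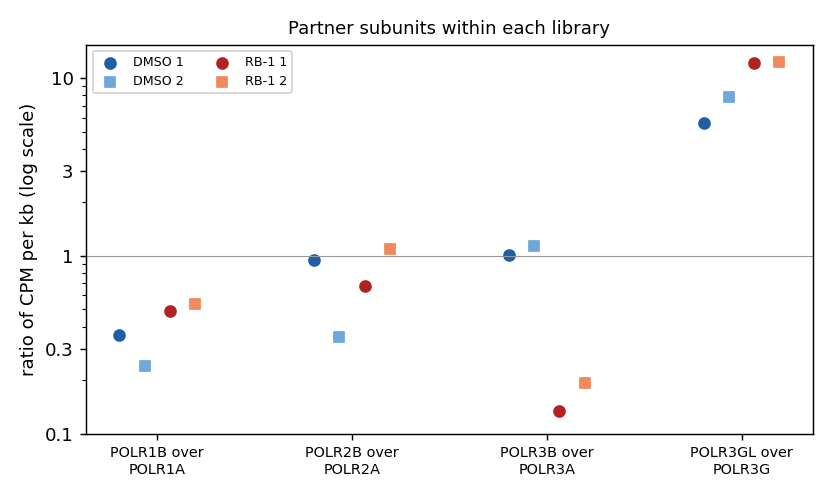
Points are the ratio of CPM per kilobase of transcript of 2 partner genes in each library, on a log axis, with the line at equal levels. POLR3B over POLR3A is 1.01 and 1.14 in DMSO and 0.135 and 0.192 in RB-1, while POLR2B over POLR2A overlaps between the groups.

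The 5 subunits shared by all of the enzymes had log2 fold changes from 0.023 to 0.97 (median 0.56), and 1 passed. POLR2K, a small zinc-binding subunit, was at 70.0 and 69.2 CPM in DMSO and at 154 and 119 in RB-1. Its DMSO libraries were nearly equal, both RB-1 libraries were above them, and it rose 1.96-fold (0.97 ± 0.25 SE, edgeR adjusted p = 0.0165). The call held only without RB-1 replicate 2 among the 4 fits with a library left out (adjusted p from 0.0142 to 0.0977). POLR2H was at 51.6 and 55.0 CPM in DMSO and 102 and 74.8 in RB-1 (edgeR adjusted p = 0.0621). POLR2L, one of the smallest of the shared subunits, was at 99.8 and 89.0 CPM in DMSO and at 176 and 102 in RB-1, and did not pass (edgeR adjusted p = 0.17); 22.5% of its exon bases overlap CD151 on the opposite strand. POLR2F (0.56) and POLR2E (0.023) also did not pass, and POLR2E was the only shared subunit of these 5 whose groups overlapped. POLR2F, POLR2H and POLR2L passed in 1 of the 4 fits with a library left out, that without RB-1 replicate 2. Of these 4 fits, it also called the most genes higher over the whole table. Across them the log2 fold changes ran from 0.13 to 0.90 for POLR2F, 0.49 to 0.93 for POLR2H and 0.12 to 0.90 for POLR2L.

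Of the pair shared by polymerases I and III, POLR1D was at 53.6 and 54.8 CPM in DMSO and 99.8 and 86.6 in RB-1. Replicates were close in both groups and the groups stood apart. It rose 1.72-fold (0.78 ± 0.25 SE, edgeR adjusted p = 0.0385), but did not pass without either DMSO library (0.77, adjusted p = 0.186 without replicate 1, and 0.82, adjusted p = 0.18 without replicate 2) or without the first RB-1 library (0.68, adjusted p = 0.111). With the replicate number as a block it was at 0.78 (adjusted p = 0.0531). POLR1C, its partner in the assembly platform, was at 31.3 and 32.4 CPM in DMSO and at 49.5 and 28.0 in RB-1, above in replicate 1 and below in replicate 2, and did not pass (0.28). About 18.2% of the exon bases of POLR1C overlap genes on the opposite strand.

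The small subunits of polymerase I moved in both directions. POLR1H, a zinc-binding subunit that aids the cleavage of RNA in a stalled enzyme, was at 6.79 and 4.94 CPM in DMSO and at 48.7 and 20.1 in RB-1. Both RB-1 libraries were far above both DMSO libraries, and they were 2.43-fold apart. It rose 5.86-fold (2.55 ± 0.43 SE, edgeR adjusted p = 0.00329), and passed without each library in turn (1.78 to 3.05, adjusted p from 0.00525 to 0.0199). Its fitted change was the largest in size of any member with all libraries, but without RB-1 replicate 1 it was 1.78, against -1.97 for POLR3B and -1.91 for POLR2A. About 24.5% of its exon bases overlap the antisense gene ZNRD1ASP, which has no row of its own in the table, so reads of that gene may be among its counts. POLR1F, a subunit of the stalk, was at 49.0 and 37.3 CPM in DMSO and at 14.3 and 18.1 in RB-1. It fell 2.66-fold (-1.41 ± 0.30 SE, edgeR adjusted p = 0.00734), and the groups stood apart. It did not pass with DMSO replicate 1 left out (-1.20, adjusted p = 0.0704). POLR1E (-0.29) and POLR1G (-0.18), which form a dimer on the enzyme, did not pass; 45.1% of the exon bases of POLR1G overlap ERCC1 or PPP1R13L on the opposite strand.

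Of the 7 small subunits of polymerase II, with log2 fold changes from -0.27 to 1.5 (median 0.36), 1 passed. POLR2G, which forms the stalk with POLR2D, was at 32.8 and 27.6 CPM in DMSO and 114 and 56.0 in RB-1. Both RB-1 libraries were higher, with replicate 1 at 2.04 times replicate 2. It rose 2.83-fold (1.5 ± 0.35 SE, edgeR adjusted p = 0.0118) and did not pass without DMSO replicate 2 (1.40, adjusted p = 0.0644) or RB-1 replicate 1 (0.90, adjusted p = 0.0663). POLR2D was at 50.4 and 55.1 CPM in DMSO and 98.1 and 65.4 in RB-1 (0.63 ± 0.28 SE, edgeR adjusted p = 0.113). The other 5 were POLR2C (0.33), POLR2I (0.63), POLR2J (-0.27), POLR2J2 (0.36) and POLR2J3 (-0.028). POLR2J2 and POLR2J3 are near-identical copies of POLR2J, so reads may be split among them. The Ensembl ID named POLR2J3 shares 76.2% of its exon bases with other IDs on the same strand, including another of the same symbol. For POLR2I, 79.6% of exon bases overlap genes on the opposite strand, and for POLR2J2, 20.8% overlap another gene on the same strand.

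None of the 8 small subunits of polymerase III passed edgeR's test. An unadjusted p under 0.05 in that test was reached by 2, POLR3GL and POLR3K, and by 5667 of all 13612 tested genes. Without RB-1 replicate 2, POLR3K passed. Log2 fold changes ran from -0.35 for POLR3C to 0.82 for POLR3K (median 0.10). POLR3G and POLR3GL are paralogues that occupy the same place in alternative forms of the enzyme. POLR3G was at 13.9 and 13.9 CPM in DMSO and 13.9 and 10.6 in RB-1 (-0.18 ± 0.30 SE, edgeR adjusted p = 0.678). POLR3GL was at 27.6 and 38.6 CPM in DMSO and at 60.3 and 46.0 in RB-1 (0.68 ± 0.30 SE, edgeR adjusted p = 0.107). Per kilobase, POLR3GL over POLR3G was 5.62 and 7.83 in the DMSO libraries and 12.2 and 12.3 in the RB-1 libraries, higher in both. The reference transcripts differ in length, 1165 bases for POLR3GL and 3285 for POLR3G. With an offset for transcript length and GC content (below), POLR3GL was at 0.30 (edgeR adjusted p = 0.338). POLR3G was then at 0.046 (edgeR adjusted p = 0.93). About 21.2% of the exon bases of POLR3GL overlap another gene on the same strand. POLR3D (0.19), POLR3E (-0.0051) and POLR3F (0.061) were within 1 standard error of 0. POLR2M, which binds polymerase II and shares 21.1% of its exon bases with GCOM1, was at 33.7 and 33.4 CPM in DMSO and 18.6 and 29.8 in RB-1 (-0.47, edgeR adjusted p = 0.268).

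**Figure D3:**
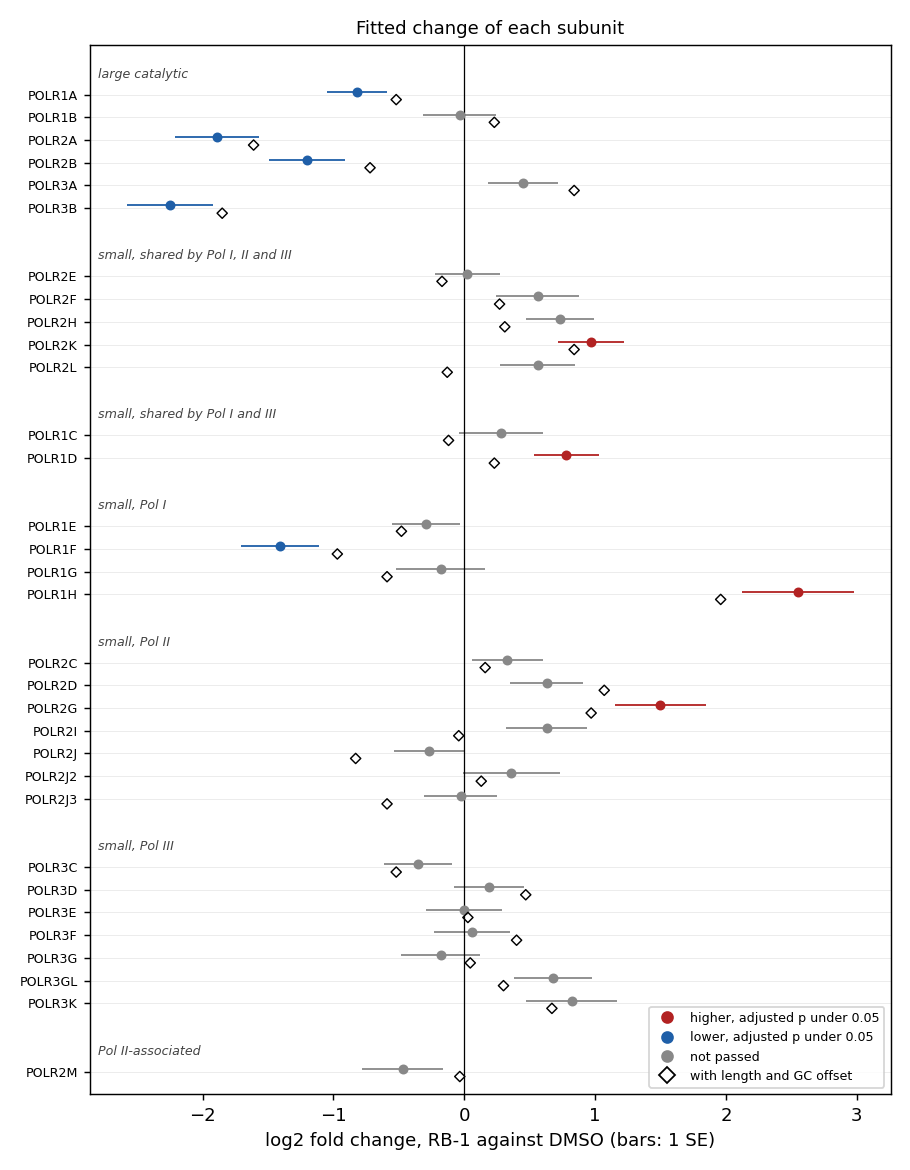
Circles are the fitted log2 fold changes of the members, RB-1 against DMSO, with bars of 1 standard error, coloured by whether the adjusted p is under 0.05; open diamonds are the values with an offset for transcript length and GC content. With the offset POLR2A, POLR2B and POLR3B stay left of 0 at -1.61, -0.72 and -1.85, and POLR3A is at 0.84.

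Mean levels of the catalytic pair of polymerase II in DMSO were 71.3 (POLR2A) and 39.0 (POLR2B) CPM per kilobase, against 29.9 and 8.85 for POLR1A and POLR1B and 6.63 and 7.08 for POLR3A and POLR3B. The highest of all members in DMSO were POLR2L (106) and POLR2J (97.7). In RB-1 POLR2A was at 19.2, POLR2B and POLR1A both at 16.9, POLR3A at 9.07 and POLR1B at 8.65 CPM per kilobase. In DMSO both POLR2A and POLR2B were already below POLR2L, and POLR2B was also below POLR2K (69.8), while POLR2G was at 36.5. In RB-1 both were below POLR2L (156), POLR2K (137) and POLR2G (103). POLR3B, at 1.49, was then the lowest of all, beside POLR2J2 at 1.53, a difference that the spread between replicates does not separate. Being from whole-culture RNA scaled to each library, these values cannot tell fewer cells with a transcript from less of it per cell.

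Transcript length moved with the changes. Across the 33 members the log2 fold change had a Spearman rho of -0.551 with transcript length, and across all 13596 tested genes with a known length -0.349, both as descriptions across genes of the same libraries. Of the small subunits 15 were in the shortest quartile of tested genes (up to 1894 bases), where 22.6% of genes were called higher and 5.62% lower; all 4 small subunits that rose were among them. The large subunits were in the upper quartiles, 3 in each, where 17.5% of genes (2943 to 4603 bases) and 30.1% (4604 bases and over) were called lower. Median log2 fold changes over all genes were 0.44 in the shortest quartile and -0.41 in the longest. Within the longest quartile, POLR1A and POLR2A fell, POLR3A did not pass, and the small subunits POLR2D and POLR3D, with long transcripts of 5042 and 5494 bases, were at 0.63 and 0.19.

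With an offset that removes the trend of each library with length and GC content, the large subunits had a median of -0.62 and the small ones 0.11, a difference of -0.73. POLR2A (-1.61, edgeR adjusted p = 0.0123), POLR2B (-0.72, adjusted p = 0.0275) and POLR3B (-1.85, adjusted p = 0.00248) were still called lower. POLR1A was not (-0.52, adjusted p = 0.0559), and POLR3A was called higher (0.84, adjusted p = 0.0182). Among small subunits, POLR1H (1.96), POLR2G (0.97) and POLR2K (0.84) were still higher, POLR2D (1.07, adjusted p = 0.0288) was added, and POLR1D (0.23, adjusted p = 0.351) was lost. POLR1F stayed lower (-0.97, adjusted p = 0.0118), and POLR2J was added to it (-0.83, adjusted p = 0.0336). In that fit 16.8% of all genes were called higher and 15.8% lower.

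**Figure D4:**
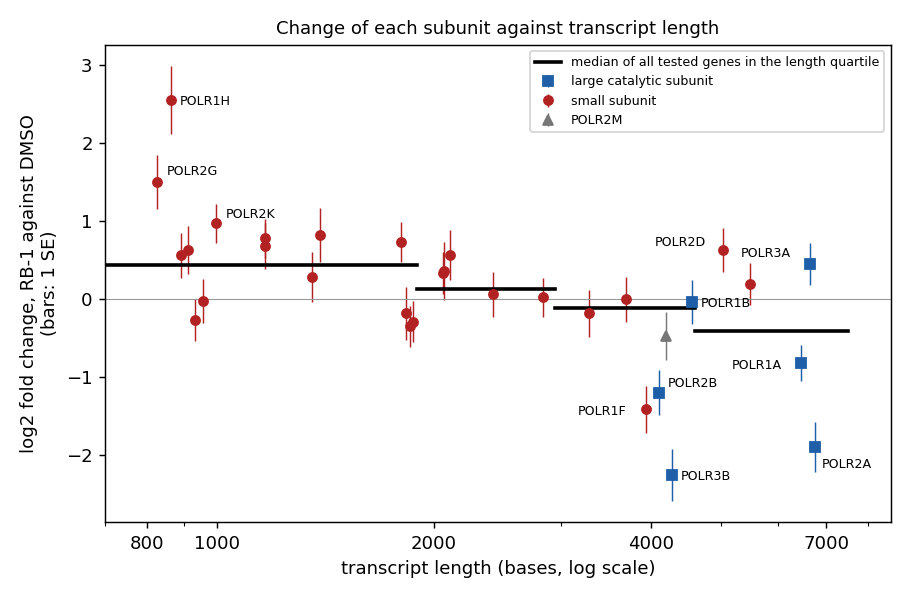
Log2 fold change with 1 standard error against transcript length on a log axis, for large subunits (squares), small subunits (circles) and POLR2M (triangle); black lines are the medians of all tested genes in each length quartile. POLR2A, POLR2B and POLR3B lie below the line of their quartile, POLR3A and POLR2D above it.

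Factors that work with the polymerases were taken from 5 lists of 90 genes, all tested, with 7 higher and 19 lower. Over all tested genes 12.8% were called higher and 16.1% lower. The counts of the lists were not tested against these shares. Of 24 factors of polymerase II elongation and pausing, 7 fell, 2 rose and 15 did not pass (median log2 fold change -0.41). SUPT16H, a subunit of the histone chaperone FACT, went from 314 and 258 CPM in DMSO to 58.8 and 71.8 in RB-1 (-2.13 ± 0.25 SE, edgeR adjusted p = 0.000494). LEO1 and CTR9, subunits of the PAF1 complex, which travels with elongating polymerase II, fell 4.83-fold and 4.42-fold. LEO1 was at 51.7 and 53.4 CPM in DMSO and at 10.0 and 11.7 in RB-1, and the groups of all of these stood far apart. These 3 passed without each library in turn. The list as a whole then had 5 to 7 lower and 1 to 7 higher, with 7 in each direction without RB-1 replicate 2.

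Of 30 general initiation factors of polymerase II, 7 fell, 4 rose and 19 did not pass (median -0.11). TAF2, a subunit of the promoter-binding factor TFIID, was at 92.0 and 69.9 CPM in DMSO and 12.7 and 24.4 in RB-1 (-2.13 ± 0.35 SE, edgeR adjusted p = 0.00257). TAF13, a small subunit of the same factor, rose from 27.4 and 23.0 CPM to 99.0 and 65.6 (1.71 ± 0.30 SE, edgeR adjusted p = 0.00324). TAF1, its largest subunit, fell 2.64-fold (-1.40 ± 0.32 SE) and did not pass without DMSO replicate 1 or RB-1 replicate 1. This list had 2, 2, 1 and 8 lower and 1, 1, 1 and 5 higher when the first and second DMSO and the first and second RB-1 library were left out in turn.

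Of 18 genes listed as factors of polymerase III, 3 fell, 1 rose and 14 did not pass (median -0.23). The list includes CRCP (-0.18, not passed), a subunit of polymerase III that is not a member here because its symbol does not match the rule. BDP1, which holds the polymerase III initiation factor TFIIIB on DNA, was at 100 and 63.7 CPM in DMSO and at 13.8 and 23.0 in RB-1 (-2.16 ± 0.35 SE, edgeR adjusted p = 0.00221). GTF3C3 and GTF3C1, subunits of TFIIIC, fell 2.25-fold and 1.75-fold, and neither passed without either DMSO library or without the first RB-1 library, where BDP1 was the 1 factor of the list still lower. Of 10 assembly and import factors, 2 fell and 8 did not pass (median -0.088). RPAP2 and RPAP3, which assist the assembly and nuclear import of polymerase II, fell 3.98-fold and 3.61-fold and passed without each library in turn. RPAP2 has a reference transcript of 16993 bases. GPN3, the next by p, did not pass (-0.56 ± 0.39 SE).

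None of the 8 factors of polymerase I passed edgeR's test (median -0.49). TTF1, which ends ribosomal RNA transcription, was at 23.6 and 19.1 CPM in DMSO and 9.33 and 14.1 in RB-1 (-0.87 ± 0.32 SE, edgeR adjusted p = 0.0658), and passed without RB-1 replicate 2. UBTF, the factor that binds ribosomal DNA along its length, was at 168 and 200 CPM against 141 and 122 (-0.48 ± 0.24 SE, edgeR adjusted p = 0.149). RRN3, which brings polymerase I to its promoter, was at 36.4 and 22.8 CPM against 14.8 and 22.9, so its groups overlapped.

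The offset for transcript length and GC content also moved the listed factors. With it RPAP2 went from -1.99 to -0.83 (edgeR adjusted p = 0.0266) and TAF1 from -1.40 to -0.74 (adjusted p = 0.0445). GTF3C3 was at -0.65 (edgeR adjusted p = 0.0457), GTF3C1 lost its call (-0.52, adjusted p = 0.0563), and TTF1 was called lower (-0.77, adjusted p = 0.0447). SUPT16H (-1.69), LEO1 (-2.03), CTR9 (-1.73), TAF2 (-1.53), BDP1 (-1.82) and TAF13 (1.61) kept their calls. By list, the counts with the offset were 6 higher and 9 lower for polymerase II initiation, 1 and 6 for elongation, 3 and 6 for polymerase III, 0 and 2 for assembly, and 0 and 1 for polymerase I. Over all tested genes that fit called 16.8% higher and 15.8% lower.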

How the data were processed

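RNA from 4 libraries of MDA-MB-231 cells, 2 per group, was analysed. The authors deposited raw read counts per Ensembl gene ID; per the labels' protocols, libraries were made with an mRNA kit. No aligner, counting tool or strand setting is given in the sources used here. The submitters' processing notes name GRCm38 and mm10, which are mouse builds, while every ID is human, so coordinates and lengths come from GENCODE release 29 and RefSeq on GRCh38, not from the build behind the counts. Symbols matched 20148 of 20263 IDs.

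Genes kept by filterByExpr (13612) were fitted with edgeR 4.0.16 (R 4.3.3; TMM factors 0.868 to 1.1, estimateDisp, glmQLFit robust, glmQLFTest), two-sided, with Benjamini-Hochberg adjustment over all tested genes and a threshold of 0.05. The common biological coefficient of variation was 0.251. CPM are counts scaled to the TMM library size. The standard error is the log2 fold change over the square root of F. Transcript length is that of 1 coding transcript per gene, or, for POLR2A, of the full-length transcript that the annotation marks with a sequence error. Where the annotation tags alternative as well as principal coding transcripts, an alternative one was taken. Some lengths are therefore not those of the principal transcript, and some are short (TAF1B at 273 bases). The length quartiles, the values per kilobase and the length and GC offset rest on these lengths. Counts were also simulated for the 13612 genes with only a small part of them changed. There the fit recovered 1.52%, 10.8% and 92.4% of genes changed 1.5-fold, 2-fold and 4-fold. In the data 28.8% of genes were called, which makes the adjusted threshold less strict, so these shares need not hold for the data.

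Replicates differed far beyond sampling noise (chi-square per degree of freedom 257 in DMSO and 128 in RB-1). Members and lists were chosen with earlier results of these data known. Values per library are given for the large subunits, POLR3G, POLR3GL, the called small subunits and the 3 factors with the smallest p in each list, or for some of these factors the fold alone; other members with values by library were chosen after their values were seen. Alternatives were other scalings and count filters, DESeq2 1.42.0, limma-voom 3.58.1, the replicate block, the length and GC offset, each library left out, an adjusted p under 0.01, and sets without POLR2J copies or with sums of at least 400; a legacy edgeR fit and a crossed block were added after seeing the data. Counts, medians and correlations cover all 33 members, of which 1 small subunit is not reported individually or drawn here.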

Additional observations from a re-analysis of the deposited data

How the results depend on the processing

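POLR3B and POLR1H kept their call and direction in all 16 alternatives, and the large minus small difference of medians stayed below 0 in each (-1.32; -1.73 to -0.98 with a library left out). The medians were -1.20 to -0.86 and 0.12 to 0.53 in those fits. With a library left out, large subunits lower numbered 1 to 4, small subunits higher 1 to 10 and lower 0 to 1, members lower 2 to 5 and higher 1 to 10, listed factors higher 2 to 13 and lower 9 to 23, and genes of the whole table higher 522 to 1955 and lower 1065 to 2443. The lowest counts of large subunits lower came without RB-1 replicate 1, the highest of small subunits higher without RB-1 replicate 2. At an adjusted p under 0.01 there were 513 genes higher and 1067 lower, 3 members lower and 1 higher, 2 large subunits lower, 1 small subunit higher, and 2 and 9 factors higher and lower. With library totals alone 1400 genes and 10 factors were lower. The length and GC offset gave 1 large subunit higher, 2 small ones lower, medians of -0.62 and 0.11 and a difference of -0.73. POLR1B ranged from -0.20 to 0.18 and POLR3G from -0.39 to 0.00057 with a library left out. POLR1B changed sign with upper-quartile factors (0.076), library totals alone (0.15), the offset (0.23), and without DMSO replicate 1 (0.18) or RB-1 replicate 1 (0.057), and POLR3G with library totals alone (0.0076), the offset (0.046) and without RB-1 replicate 2 (0.00057), none passing; the cause was not tested.

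The replicate numbers do not pair the samples by any label, and the deviations of same-numbered samples correlated at -0.112. With the replicate block 1741 genes were higher and 2314 lower, and members 3 and 5, only POLR1D being lost among the named members. With the numbers crossed, an alternative added after seeing the data, 1970 were higher and 2550 lower, and members 5 and 5. A 2-fold change was recovered in 10.8% of simulated cases. Far fewer genes were changed in that simulation than were called in the data, so the share need not hold here. A member that did not pass is not shown to be without change.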
